A study of Mus musculus with 4 samples.

Results

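The glucocorticoid receptor gene Nr3c1 and 8 of its core target genes, Fkbp5, Tsc22d3, Klf9, Zbtb16, Sgk1, Errfi1, Cebpd and Rhob, were followed across the cell types of sorted adipose tissue cells. These 9 genes, of 31053 in the files, were chosen by symbol with their change between temperatures already known, so that change is described here without a test. Male ChATBAC-eGFP mice, which carry green fluorescent protein under choline acetyltransferase regulatory sequence on a bacterial artificial chromosome, were kept from 5 weeks of age for 3 weeks at 30 °C, which is thermoneutral for mice. They then had 4 h at 4 °C or 4 h more at 30 °C, and per the study's methods the cold mice had 24 h at room temperature before the cold, a step that cannot be told apart from the cold itself. Live ChAT-eGFP+ cells were sorted from the stromal vascular fraction of the inguinal white fat, and each of the 4 libraries (n = 2 per temperature) pooled 4 mice. All groups carry the same reporter, and every cell described here was sorted on eGFP. The paper reports that cold raised the share of ChAT-eGFP+ cells and the Chat transcript. Whether the sort admitted the same kinds of cells at both temperatures was not tested.

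Glucocorticoids, mainly corticosterone in mice, bind the receptor encoded by Nr3c1 in the cytoplasm, where it is held by chaperones. The bound receptor moves to the nucleus and occupies response elements near its targets, and it also represses many cytokine genes. Fkbp5, which encodes an immunophilin that lowers the receptor's affinity for its ligand, and Tsc22d3, which encodes the glucocorticoid-induced leucine zipper, are widely used readouts of receptor activity in immune cells.

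Of 26654 barcodes, 21253 cells passed the filters, between 5191 and 5388 per library, and 18892 of them fell into 16 cell types set by marker genes, none of which is among the 9 genes. Barcodes held medians of 7505 to 8210 unique molecular identifiers (UMIs) per library, and library pairs shared 10 to 18 barcodes. The UMIs of all cells of a type were summed per library and are given as CPM, the counts per 1e+06 UMIs of that sum. Such sums cannot tell fewer expressing cells from less RNA per cell. Cell numbers per type and library ran from 24, in stromal cells, to 2046, in Ighd+ B cells. The Gamma-delta T cells numbered 173 and 183 at 30 °C but 85 and 31 at 4 °C. Their gate keeps cycling cells. Without cells that had UMIs of at least 2 proliferation markers, 84 and 96 remained at 30 °C and 72 and 21 at 4 °C. A larger share of these cells was thus cycling at 30 °C. Markers of macrophages, summed over 12 genes, reached 10.9 to 86.3 CPM in the non-macrophage types at 30 °C and 4.12 to 89.3 CPM at 4 °C. B cell markers reached 662 CPM at 30 °C and 870.2 CPM at 4 °C outside the B lineage, both in stromal cells, whose gate does not exclude Ebf1, and T cell markers reached 1386 and 1769 CPM outside the T lineage, both in ILC2. The part of these markers in the values below was not tested.

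Each of the 9 genes was counted in each of the 16 types, which gave 144 gene and cell type pairs, and 105 passed the filter on low counts. In 57 of those 105 pairs (54.3%) both 4 °C libraries lay below both 30 °C libraries, and in 16 (15.2%) both lay above. Over all 129035 pairs of a tested gene and a cell type, 17.8% lay below without overlap and 30.1% above, and the genes were chosen for their change, so nothing is read from this difference. The median log2 fold change of all tested genes was between -0.01 and 0.00 in each type, since the fits scale the libraries to the bulk of genes. Plain CPM carry a median shift of at most 0.09 on the log2 scale in any type.

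**Figure D1:**
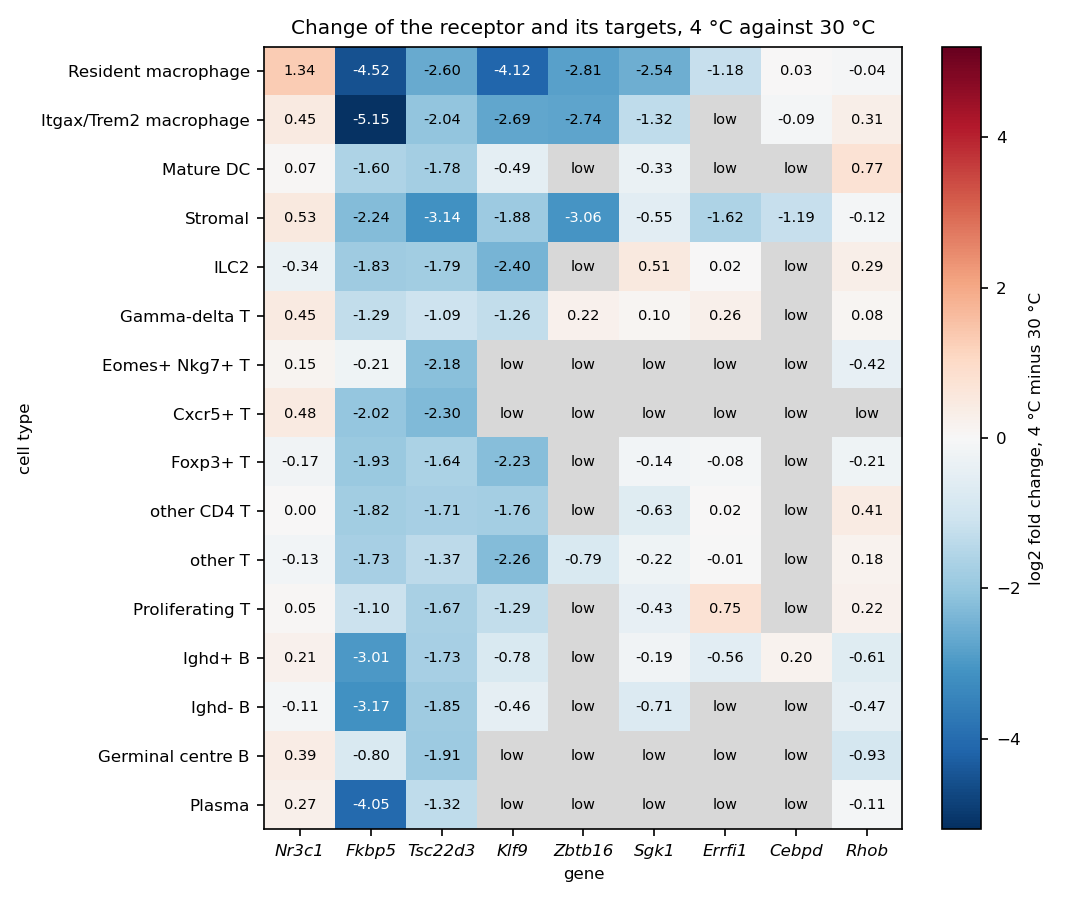
Log2 fold change (4 °C minus 30 °C, edgeR estimate) of the 9 genes (columns) in the 16 cell types (rows). Blue is lower and red higher at 4 °C, and grey cells marked low did not pass the filter on low counts. Fkbp5 and Tsc22d3 are negative in all 16 rows, Klf9 in all 12 that passed, and the other 6 genes have values of both signs.

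The receptor gene itself lies on chromosome 18. At 30 °C the Nr3c1 level was 96.7 and 91.4 CPM in resident macrophages (Mrc1+ Folr2+ cells) and at 4 °C it was 239.5 and 255 CPM, the largest upward difference of the 9 genes (log2 fold change 1.34, SE 0.13). Both cold libraries stood far above both warm libraries. The gate takes Mrc1+ Folr2+ macrophages without a UMI of Itgax or Trem2. In the study's own clustering, resident macrophages from 30 °C and from 4 °C fell largely into separate clusters. Whether the same macrophage states were present at both temperatures in this gate was not tested. In type 2 innate lymphoid cells (ILC2), defined by Gata3 and at least 1 further innate lymphoid marker without Cd3e, the level was 174 and 182 CPM at 30 °C against 146 and 148 CPM at 4 °C (log2 fold change -0.34, SE 0.11). ILC2 were the only type in which both cold libraries were lower on the CPM scale.

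Elsewhere the log2 fold change of Nr3c1 lay between -0.17 and 0.53, with stromal cells at the top (SE 0.34) and Cxcr5+ T cells next (0.48, SE 0.27). Ighd+ B cells held 45.8 and 45.8 CPM at 30 °C against 55.7 and 58.4 CPM at 4 °C (log2 fold change 0.21, SE 0.06). In Foxp3+ T cells the values were 101 and 108 CPM at 30 °C against 89.0 and 103 CPM at 4 °C, which overlap. Itgax/Trem2 macrophages had 115 and 66.1 CPM at 30 °C against 128 and 131 CPM at 4 °C. Over the 16 types, Nr3c1 was higher without overlap in 9 and lower in 1, beside 30.1% and 17.8% of all pairs, and after scaling for library composition it was higher in 9 and lower in 2, beside 23.1% and 23.8%. Its median log2 fold change over the types was 0.18.

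The level of Nr3c1 between cell types, averaged over temperature, was not used to choose it and was tested with edgeR's quasi-likelihood test. ILC2 stood 1.15 (SE 0.11) on the log2 scale above the mean of the other types (adjusted p = 5.51e-13) and resident macrophages 0.93 (SE 0.12) above it (adjusted p = 1.27e-09). Stromal cells were also above it, by 0.70 (SE 0.19, adjusted p = 0.00124). Resident macrophages had 239.5 and 255 CPM at 4 °C but 96.7 and 91.4 CPM at 30 °C, below the 101 and 108 CPM of Foxp3+ T cells there. Below the mean were the Eomes+ Nkg7+ T cells, by -0.76 (SE 0.20, adjusted p = 0.00162), the Ighd- B cells, by -0.65 (SE 0.14, adjusted p = 9.58e-05), the proliferating T cells, by -0.41 (SE 0.13, adjusted p = 0.00409) and the Ighd+ B cells, by -0.30 (SE 0.12, adjusted p = 0.0267). In all, 7 of 16 types differed from the mean of the others, where 43.4% of all gene and type pairs did. In the order from ILC2 down to Eomes+ Nkg7+ T cells, none of the 15 neighbouring pairs differed past the threshold, so the order forms a gradient without a measurable step. Plasma cells had the lowest CPM (17.5 to 25.8), but immunoglobulin transcripts took 59.2% to 61.5% of their UMIs, which compresses the CPM of every other gene in them.

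**Figure D2:**
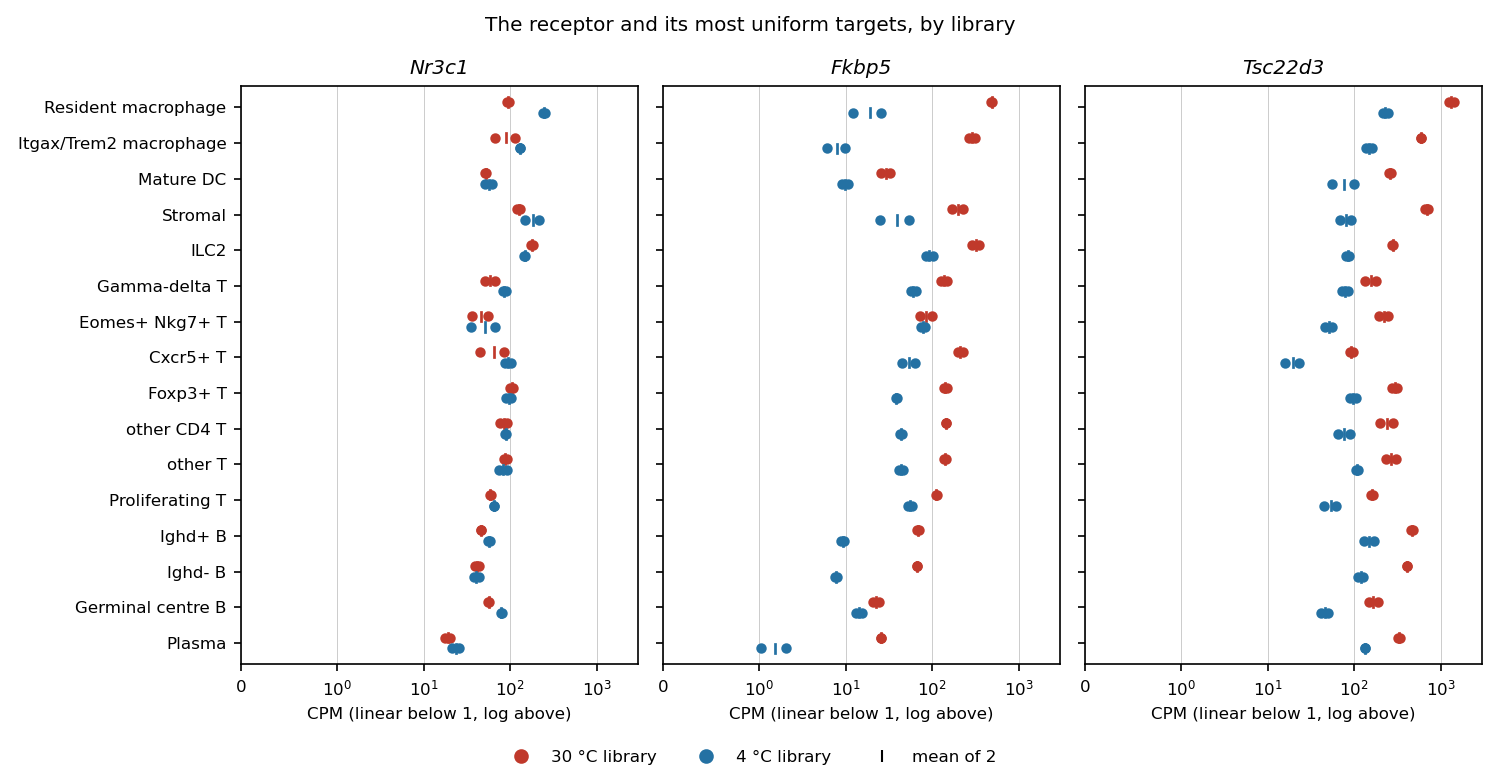
CPM (x axis, linear below 1 and logarithmic above) of Nr3c1, Fkbp5 and Tsc22d3 in each library (points, red 30 °C and blue 4 °C, n = 2 each, ticks their means) by cell type. The red and blue points are apart for Tsc22d3 in every row and for Fkbp5 in every row but Eomes+ Nkg7+ T cells, and for Nr3c1 they are farthest apart, as a ratio of means, in resident macrophages.

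Fkbp5 (chromosome 17, 28399094 to 28517527, minus strand, GRCm38) was lower at 4 °C without overlap in 15 of 16 types, beside 17.8% of all pairs. The size of the difference varied widely with cell type. In resident macrophages it was 495 and 476 CPM at 30 °C against 25.8 and 12.2 CPM at 4 °C (log2 fold change -4.52, SE 0.18). Itgax/Trem2 macrophages are those with any UMI of Itgax or Trem2, and whether they are lipid-associated macrophages was not tested. Their Fkbp5 was 268 and 314 CPM at 30 °C against 9.75 and 6.02 CPM at 4 °C (log2 fold change -5.15, SE 0.27). These were the steepest differences for Fkbp5, and the 4 °C values of both macrophage types rest on 73 and 16 UMIs.

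The B lineage was divided. Ighd+ B cells held 70.8 and 65.9 CPM of Fkbp5 at 30 °C against 9.59 and 8.80 CPM at 4 °C (log2 fold change -3.01, SE 0.08). Ighd- B cells held 66.0 and 66.0 CPM at 30 °C against 7.98 and 7.49 CPM at 4 °C (log2 fold change -3.17, SE 0.17). In germinal centre B cells the warm level was already low, 20.5 and 24.6 CPM, and the cold level was 13.2 and 15.2 CPM (log2 fold change -0.80, SE 0.22). At 4 °C these 3 B cell types lay between 7.49 and 15.2 CPM, whereas at 30 °C they spanned 20.5 to 70.8 CPM. Plasma cells, the antibody-secreting end of the lineage, had 25.5 and 25.8 CPM at 30 °C against 1.06 and 2.02 CPM at 4 °C, from 165 and 9 UMIs in all (log2 fold change -4.05, SE 0.33).

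In lymphocytes of the T lineage the Fkbp5 log2 fold change lay between -2.02 and -0.21. Foxp3+ T cells, the regulatory T cell gate, held 138 and 147 CPM at 30 °C against 38.0 and 39.2 CPM at 4 °C (log2 fold change -1.93, SE 0.09). In Cxcr5+ T cells, a gate on a follicular helper marker, Fkbp5 was 197 and 226 CPM at 30 °C against 44.2 and 63.7 CPM in the cold (log2 fold change -2.02, SE 0.22). Proliferating T cells had 112 and 111 CPM at 30 °C against 53.1 and 57.7 CPM at 4 °C (log2 fold change -1.10, SE 0.09). In each of these 3 types the cold libraries were well below the warm ones and no library lay under 38.0 CPM. The other CD4 T cells (log2 fold change -1.82, SE 0.12) and the remaining T cells (log2 fold change -1.73, SE 0.15) lay in the same range.

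Gamma-delta T cells had 125 and 149 CPM of Fkbp5 at 30 °C against 57.3 and 64.1 CPM at 4 °C (log2 fold change -1.29, SE 0.19). Eomes+ Nkg7+ T cells, a gate on cytotoxic-type markers, had 72.6 and 99.1 CPM at 30 °C against 82.2 and 73.9 CPM at 4 °C. This was the only type in which the Fkbp5 libraries overlapped (log2 fold change -0.21, SE 0.25), and without the second 30 °C library the estimate was 0.00. ILC2 held the highest Fkbp5 level outside the macrophages at 30 °C, 289 and 349 CPM, and 101 and 83.8 CPM at 4 °C (log2 fold change -1.83, SE 0.13). Mature dendritic cells had 25.8 and 32.8 CPM at 30 °C against 10.5 and 9.11 CPM at 4 °C (log2 fold change -1.60, SE 0.37). Stromal cells, of which each library held 24 to 40, had 229.9 and 171 CPM at 30 °C against 54.3 and 24.8 CPM at 4 °C (log2 fold change -2.24, SE 0.42).

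Averaged over temperature, Fkbp5 was above the mean of the other types in ILC2 (log2 difference 1.66, SE 0.23, adjusted p = 2.25e-08) and in resident macrophages (1.25, SE 0.25, adjusted p = 1.86e-05). It was below it in germinal centre B cells (-1.91, SE 0.37, adjusted p = 1.06e-05), mature dendritic cells (-1.82, SE 0.48, adjusted p = 0.000994), plasma cells (-1.01, SE 0.38, adjusted p = 0.0266) and both the Ighd+ and the Ighd- B cells (-0.84, SE 0.26, adjusted p = 0.00506 and -0.87, SE 0.31, adjusted p = 0.0188). The single step in its order of levels that passed the threshold lay between Foxp3+ T cells and Ighd+ B cells (log2 difference 0.98, adjusted p = 0.0118, edgeR). The average hides a split in resident macrophages, which had 495 and 476 CPM at 30 °C but 25.8 and 12.2 CPM at 4 °C. In the cold they were thus below ILC2 (101 and 83.8 CPM) and Foxp3+ T cells (38.0 and 39.2 CPM).

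Tsc22d3 (chromosome X, 140539528 to 140600659, minus strand) was the most uniform of the 9 genes. It was lower without overlap in 16 of 16 types, beside 17.8% of all pairs. In resident macrophages it was 1406 and 1249 CPM at 30 °C against 214 and 243 CPM at 4 °C (log2 fold change -2.60, SE 0.12). Ighd+ B cells had 474 and 455 CPM at 30 °C against 129 and 171 CPM at 4 °C (log2 fold change -1.73, SE 0.09), from 16004 and 5153 UMIs. The Eomes+ Nkg7+ T cells, whose Fkbp5 overlapped, had 244 and 194 CPM of Tsc22d3 at 30 °C against 55.4 and 46.0 CPM at 4 °C (log2 fold change -2.18, SE 0.24). In that type Tsc22d3 was separated by temperature and Fkbp5 was not.

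The smallest Tsc22d3 difference was in Gamma-delta T cells, with 177 and 133 CPM at 30 °C against 72.7 and 85.5 CPM at 4 °C (log2 fold change -1.09, SE 0.19), and for Tsc22d3 in Gamma-delta T it was -2.03 when cells with over 5000 genes were kept. The largest was in stromal cells, with 717 and 662 CPM at 30 °C against 67.8 and 90.7 CPM at 4 °C (log2 fold change -3.14, SE 0.31). Plasma cells had 319 and 335 CPM at 30 °C against 133 and 134 CPM at 4 °C (log2 fold change -1.32, SE 0.11), a smaller difference than in the other B lineage types by point estimate. Germinal centre B cells had 186 and 148 CPM at 30 °C against 41.7 and 49.5 CPM at 4 °C (log2 fold change -1.91, SE 0.14), which was of the size seen in the Ighd- B cells (log2 fold change -1.85, SE 0.09). Fkbp5 and Tsc22d3 therefore did not rank the B lineage types in the same order.

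By level, averaged over temperature, Tsc22d3 differed from the mean of the other types in 12 of 16 types, where 43.4% of all gene and type pairs did. Plasma cells were highest in the fit (log2 difference 2.05, SE 0.11, adjusted p = 1.72e-24), where library composition is taken into account, followed by resident macrophages (1.66, SE 0.11, adjusted p = 1.33e-20) and Ighd+ B cells (1.07, SE 0.11, adjusted p = 5.79e-13). On plain CPM plasma cells ranked 6. Cxcr5+ T cells were lowest on both scales (-2.23, SE 0.21, adjusted p = 2.25e-13).

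**Figure D3:**
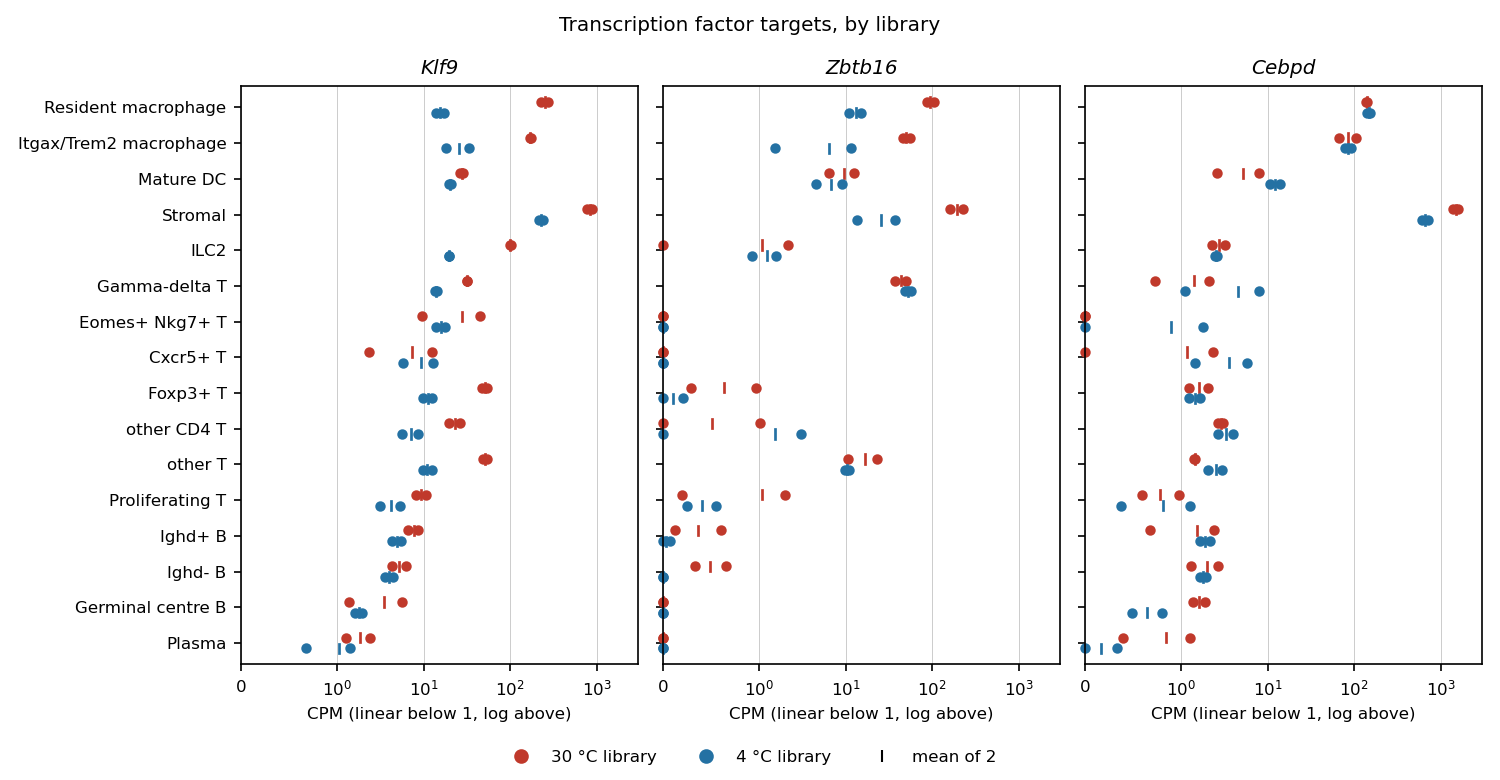
CPM (x axis, linear below 1 and logarithmic above) of Klf9, Zbtb16 and Cebpd in each library (points, red 30 °C and blue 4 °C, n = 2 each, ticks their means) by cell type. Klf9 separates by temperature in macrophages, stromal cells, ILC2 and most T cells, Zbtb16 separates in macrophages and stromal cells but not in Gamma-delta T cells, and Cebpd separates in stromal cells.

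The transcription factor genes among the targets were more restricted. Klf9 (chromosome 19, 23141226 to 23168134, plus strand), a Krüppel-like factor gene that is a direct receptor target in many tissues, passed the filter in 12 types. It was lower without overlap in 11 of them, beside 17.8% of all pairs. Stromal cells carried the most, 893 and 779 CPM at 30 °C against 239.6 and 215 CPM at 4 °C (log2 fold change -1.88, SE 0.26). In resident macrophages it was 271 and 229 CPM at 30 °C against 13.9 and 17.1 CPM at 4 °C (log2 fold change -4.12, SE 0.18). Stromal cells at 4 °C thus kept a Klf9 level near that of resident macrophages at 30 °C.

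ILC2 had 101 and 98.8 CPM of Klf9 at 30 °C against 19.7 and 19.8 CPM at 4 °C (log2 fold change -2.40, SE 0.16). Foxp3+ T cells had 54.3 and 47.4 CPM at 30 °C against 9.91 and 12.5 CPM at 4 °C (log2 fold change -2.23, SE 0.16). Gamma-delta T cells again showed a smaller difference than ILC2 by point estimate, with 31.8 and 31.4 CPM at 30 °C against 14.3 and 13.4 CPM at 4 °C (log2 fold change -1.26, SE 0.30). In B cells Klf9 was scarce and close between temperatures, with 8.70 and 6.65 CPM at 30 °C against 5.52 and 4.27 CPM at 4 °C in Ighd+ B cells (log2 fold change -0.78, SE 0.18). The Ighd- B cells overlapped, with 6.20 and 4.27 CPM at 30 °C against 4.47 and 3.58 CPM at 4 °C (log2 fold change -0.46, SE 0.39). Mature dendritic cells had 28.3 and 26.6 CPM at 30 °C against 19.6 and 21.0 CPM at 4 °C (log2 fold change -0.49, SE 0.30). Cxcr5+ T, Eomes+ Nkg7+ T, germinal centre B and plasma cells did not pass the filter for Klf9.

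Between types, Klf9 in stromal cells lay 4.66 (SE 0.24) above the mean of the others on the log2 scale (adjusted p = 9.18e-26), and the step down to resident macrophages, of 2.18, passed the threshold (adjusted p = 9.31e-09).

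Zbtb16 (chromosome 9, 48654297 to 48836222, minus strand) encodes PLZF, a zinc finger factor that is both a strong glucocorticoid target in many cells and a lineage factor of innate-like T cells. Stromal cells had 229.9 and 162 CPM at 30 °C against 13.6 and 37.1 CPM at 4 °C (log2 fold change -3.06, SE 0.50). Resident macrophages had 86.3 and 104 CPM at 30 °C against 15.2 and 11.0 CPM at 4 °C (log2 fold change -2.81, SE 0.23). Itgax/Trem2 macrophages had 54.7 and 46.1 CPM at 30 °C against 11.4 and 1.50 CPM at 4 °C, the last 2 from 15 UMIs (log2 fold change -2.74, SE 0.49). In all 3 types both cold libraries were lower.

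Gamma-delta T cells held a similar amount but without such a difference, 36.8 and 49.7 CPM at 30 °C against 57.3 and 48.1 CPM at 4 °C (log2 fold change 0.22, SE 0.24). The sign of that value was not stable, and for Zbtb16 in Gamma-delta T cells it was -0.37 when cells with over 5000 genes were kept and -0.01 without the first 30 °C library. The remaining T cells had 10.6 and 22.8 CPM at 30 °C against 11.0 and 9.71 CPM at 4 °C, which overlap (log2 fold change -0.79, SE 0.38). In the other 11 types Zbtb16 was too scarce for the filter, with no UMI at all in Cxcr5+ T, Eomes+ Nkg7+ T, germinal centre B and plasma cells and at most 12.5 CPM in any library.

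The share of cells with a Zbtb16 UMI was taken over cells with at least 3000 UMIs, each thinned to 3000 UMIs. It was 24.3% (95% Clopper-Pearson interval 16.4% to 33.7%) and 23.4% (15.9% to 32.4%) in the warm libraries of resident macrophages. In the cold ones it was 5.38% (3.04% to 8.71%) and 3.49% (0.725% to 9.86%). In Gamma-delta T cells the warm libraries gave 8.67% (4.93% to 13.9%) and 13.7% (9.09% to 19.6%), and the cold libraries gave 17.6% (10.2% to 27.4%) and 6.45% (0.791% to 21.4%) at 4 °C. Without thinning, and over all cells of the type, the shares were 51.4%, 52.5%, 11.6% and 9.47% in resident macrophages and 32.9%, 45.4%, 35.3% and 19.4% in Gamma-delta T cells. In Ighd+ B cells, taken as a type that should lack Zbtb16, the thinned share at 30 °C was 0.155% and 0.0549%, at median depths of 7306 to 7826 UMIs per cell against 8650 to 9199 in resident macrophages. The intervals cover counting error only.

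Averaged over temperature, Zbtb16 lay above the mean of the other types in 6 types, in the order stromal cells, Gamma-delta T cells, resident macrophages, Itgax/Trem2 macrophages, remaining T cells and mature dendritic cells. Of all gene and type pairs 43.4% differed from that mean, in either direction. The step from mature dendritic cells to the other CD4 T cells was the only one in the Zbtb16 order past the threshold (log2 difference 2.97, adjusted p = 0.00492).

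Cebpd (chromosome 16, 15887286 to 15891031, plus strand), a CCAAT/enhancer binding protein gene induced by glucocorticoids during adipogenesis, passed the filter in 4 types. Stromal cells had 1400.0 and 1599 CPM at 30 °C against 604 and 718 CPM at 4 °C (log2 fold change -1.19, SE 0.23). Resident macrophages had 137 and 141 CPM at 30 °C against 142 and 154 CPM at 4 °C (log2 fold change 0.03, SE 0.13), and for Cebpd in Resident macrophage the estimate was -0.01 without the first 30 °C library and -0.02 without the second 4 °C library. In the Itgax/Trem2 macrophages the libraries overlapped (log2 fold change -0.09, SE 0.24), as they did in Ighd+ B cells at about 1 to 2 CPM. The lower Cebpd at 4 °C was thus seen in stromal cells but not in the macrophages, whose Fkbp5, Tsc22d3, Klf9 and Zbtb16 were all lower. By level, averaged over temperature, stromal cells were above resident macrophages in Cebpd by 2.74 on the log2 scale (adjusted p = 9.92e-20) and these above Itgax/Trem2 macrophages by 0.72 (adjusted p = 0.0108).

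The stromal gate held 25 and 24 cells at 30 °C and 40 and 24 at 4 °C, and its median depth at 30 °C was 4202 UMIs per cell in the first library and 11443 in the second. Its summed Schwann cell and neuron markers were 1332 CPM in the first and 140 CPM in the second 30 °C library. At 4 °C they were 2758 CPM in the first and 111 CPM in the second library, so the first library was the high one at each temperature. The part of these markers in the stromal values was not tested. Only 7 of 3821 genes tested (0.183%) passed the threshold in stromal cells.

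**Figure D4:**
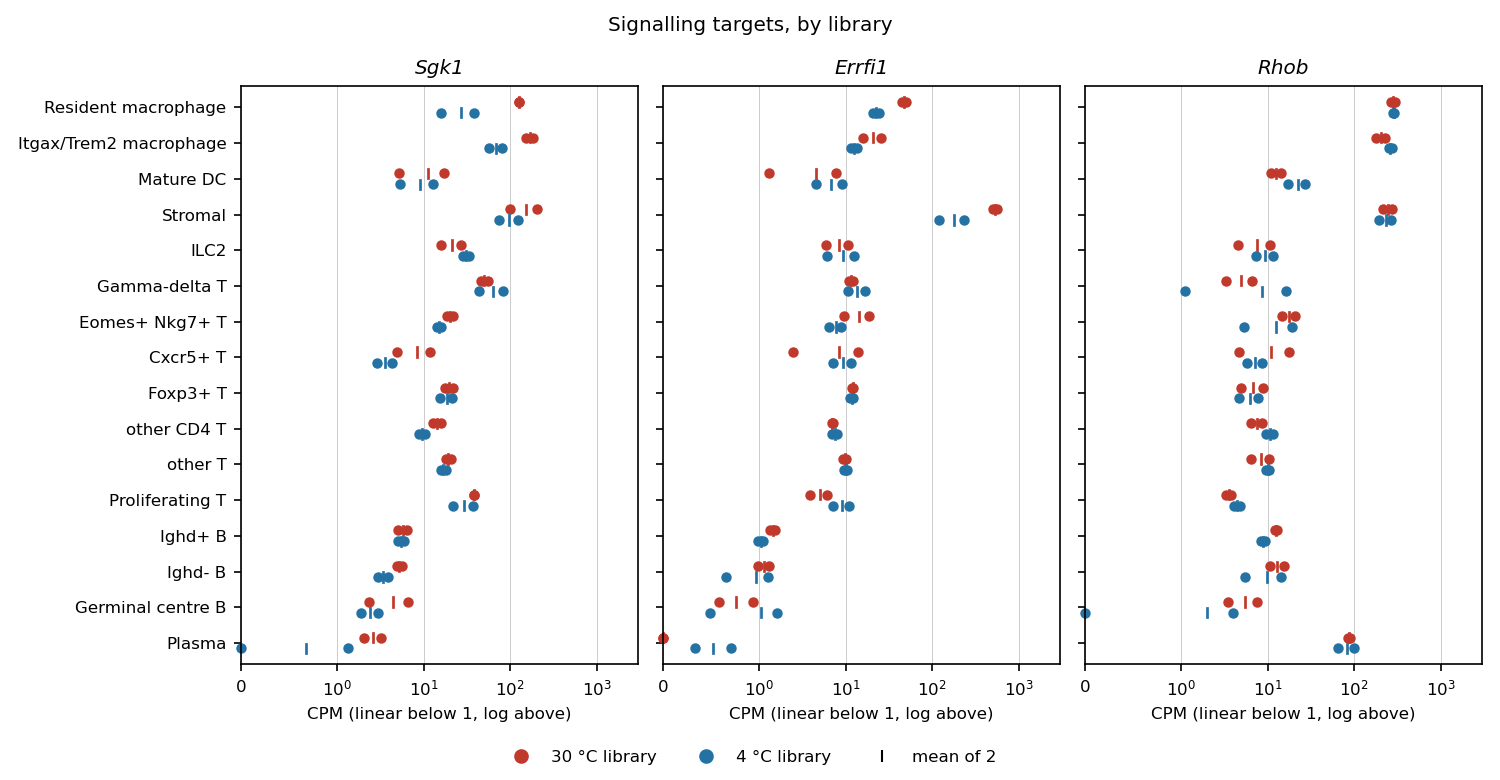
CPM (x axis, linear below 1 and logarithmic above) of Sgk1, Errfi1 and Rhob in each library (points, red 30 °C and blue 4 °C, n = 2 each, ticks their means) by cell type. Sgk1 is apart by temperature in both macrophage types and in several lymphocyte types. Errfi1 is apart in resident macrophages and stromal cells, and the Rhob points of macrophages, stromal and plasma cells lie close together.

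The signalling genes were the most divided. Sgk1 (chromosome 10, 21882184 to 21999903, plus strand) encodes a kinase that regulates ion channels and is induced by glucocorticoids, mineralocorticoids and other stimuli. Of the 6 targets with an entry among the RefSeq promoters (GRCm38.p6, 300 bases around each start, from 250 before to 50 after), it alone held the full palindromic response element, AGAACA and TGTTCT with any 3 bases between them, which reads the same on both strands, in 1 of its 6 listed promoters. That promoter, chr10:21993640-21993939 on the plus strand, is shown because it carries this element, in capitals:

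Sgk1 promoter: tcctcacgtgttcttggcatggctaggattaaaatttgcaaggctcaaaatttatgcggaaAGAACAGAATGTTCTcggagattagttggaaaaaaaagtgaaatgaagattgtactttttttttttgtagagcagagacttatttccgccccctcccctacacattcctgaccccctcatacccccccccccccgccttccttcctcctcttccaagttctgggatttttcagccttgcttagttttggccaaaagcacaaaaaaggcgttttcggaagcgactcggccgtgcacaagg

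The element begins 189 bases before the listed start and is found in 3 of 32851 promoters (0.00913%). A looser form that it contains, GNACA and TGTNC with any 3 bases between them, is found in 156 (0.475%) and in no other promoter of the listed targets. This is a match of letters in these windows and not evidence of binding.

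Sgk1 was 125 and 127 CPM in resident macrophages at 30 °C and 16.0 and 37.8 CPM at 4 °C (log2 fold change -2.54, SE 0.26). Without the first 4 °C library the estimate for Sgk1 in Resident macrophage was -1.77. Itgax/Trem2 macrophages had 154 and 186 CPM at 30 °C against 81.3 and 57.2 CPM at 4 °C (log2 fold change -1.32, SE 0.22). Both macrophage types were lower at 4 °C without overlap.

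In the lymphocyte types that passed the filter Sgk1 differed less by point estimate. It was lower without overlap in Ighd- B cells (log2 fold change -0.71, SE 0.40) and the other CD4 T cells (-0.63, SE 0.29). Proliferating T cells (-0.43, SE 0.19) and the remaining T cells (-0.22, SE 0.28) were also lower without overlap. Foxp3+ T cells had 21.8 and 17.4 CPM at 30 °C against 21.4 and 15.4 CPM at 4 °C (log2 fold change -0.14, SE 0.20). ILC2 had 26.9 and 16.0 CPM at 30 °C against 33.9 and 28.6 CPM at 4 °C (log2 fold change 0.51, SE 0.24), the reverse direction to macrophages. For Sgk1 in ILC2 the stricter gate gave 0.01, and the estimate was 0.91 without the first and 0.18 without the second 30 °C library. Gamma-delta T cells had 55.0 and 46.1 CPM at 30 °C against 44.0 and 82.8 CPM at 4 °C, which overlap (log2 fold change 0.10, SE 0.27). For Sgk1 in Gamma-delta T the estimate was -0.89 when cells with over 5000 genes were kept and -0.28 without the second 4 °C library. Over the 12 types that passed the filter, Sgk1 was lower without overlap in 6, higher in 1 and overlapping in 5. Of all pairs 17.8% were lower and 30.1% higher without overlap. The median log2 fold change of Sgk1 was -0.38. Its level, averaged over temperature, was above the mean of the other types in 6 of 16, where 43.4% of all gene and type pairs differed in either direction. Itgax/Trem2 macrophages (log2 difference 2.72, SE 0.23, adjusted p = 3.77e-16) and stromal cells (2.72, SE 0.32, adjusted p = 5.65e-11) were at the top.

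Errfi1 (chromosome 4, 150853919 to 150868892, plus strand) encodes MIG6, a feedback inhibitor of the epidermal growth factor receptor. It was 501 and 567 CPM in stromal cells at 30 °C and 119.8 and 235 CPM at 4 °C (log2 fold change -1.62, SE 0.37). Resident macrophages had 50.3 and 45.2 CPM at 30 °C against 20.5 and 24.4 CPM at 4 °C (log2 fold change -1.18, SE 0.24). Proliferating T cells went the other way at low level, 3.89 and 6.14 CPM at 30 °C against 7.21 and 11.0 CPM at 4 °C (log2 fold change 0.75, SE 0.32). In the other 6 types that passed the filter the log2 fold change lay between -0.56 and 0.26, and in 5 of them the libraries overlapped. Stromal cells were above resident macrophages by 3.16 on the log2 scale (adjusted p = 2.65e-16).

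Rhob (chromosome 12, 8497661 to 8500009, minus strand) encodes a small GTPase of endosomal traffic and the actin cytoskeleton. It overlapped between temperatures in 10 of the 15 types that passed the filter, and its median log2 fold change was -0.04. Resident macrophages had 297 and 269.5 CPM at 30 °C against 281 and 288 CPM at 4 °C (log2 fold change -0.04, SE 0.11), next to the Fkbp5 and Klf9 differences in the same cells. Ighd+ B cells were the type with a lower Rhob in both cold libraries, 12.3 and 12.9 CPM at 30 °C against 8.28 and 9.32 CPM at 4 °C (log2 fold change -0.61, SE 0.11). Mature dendritic cells had 14.2 and 10.9 CPM at 30 °C against 27.1 and 17.3 CPM at 4 °C (log2 fold change 0.77, SE 0.40). Rhob was higher without overlap in 4 of the 15 types and lower in 1, beside 30.1% and 17.8% of all pairs, so nothing is read from these counts. By level, plasma cells (log2 difference 4.00, SE 0.13, adjusted p = 1.34e-35) and resident macrophages (3.92, SE 0.12, adjusted p = 1.13e-36) stood highest in the fit, and the step from stromal cells to mature dendritic cells, of 3.15, passed the threshold (adjusted p = 1.97e-14).

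Read by cell type, resident macrophages passed the filter for all 8 targets, and 6 were lower without overlap. Cebpd was higher without overlap on plain CPM only, and its libraries overlapped after scaling for library composition. Their median target log2 fold change was -2.57, that of Itgax/Trem2 macrophages -2.04 over 7 targets and that of stromal cells -1.75 over 8. Gamma-delta T cells had a median of 0.08 over 7 targets, of which 3 (Fkbp5, Tsc22d3 and Klf9) were lower without overlap. That median was not stable: it was -0.89 when cells with over 5000 genes were kept, -0.43 without proliferating cells, -1.18 without the second 4 °C library, which held 31 of these cells, -0.17 without the first 4 °C library and -0.20 without the first 30 °C library. Under the same alternatives the resident macrophage median stayed between -2.69 and -2.13. Of all genes tested in resident macrophages 24.5% were lower and 31.7% higher without overlap, and 19.7% were lower in stromal cells and 19.8% in Gamma-delta T cells.

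Other known targets of the receptor, outside the 9 genes, were tested with edgeR and adjusted over all genes of a type. This list and the 3 that follow were drawn up with earlier results of these data known, so their counts describe these libraries and are not independent evidence of a direction. Of 26 genes, 24 were tested in at least 1 type, and of 281 gene and type pairs 97 were lower (34.5%) and 8 higher (2.85%) at 4 °C, where 2.61% of all pairs were lower and 2.13% higher (4.74% in either direction). The list median was negative in 16 of 16 types, from -0.18 in Gamma-delta T cells to -1.14 in stromal cells. In resident macrophages 15 of 21 were lower and 2 higher, beside 8.7% and 8.92% of all genes there. The list was not uniform. Zfp36 was higher in 4 and lower in 0 of 16 types, Per1 was lower in 3 of 16, and Anxa1 passed in 0 of 12. The 8 higher pairs over all types became 4 without the first 30 °C library.

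Ddit4, which encodes the mTORC1 inhibitor REDD1, passed the threshold as lower in 15 of 16 types. In resident macrophages it was 482 and 451 CPM at 30 °C against 3.68 and 1.22 CPM at 4 °C (log2 fold change -7.26, SE 0.22, adjusted p = 6.29e-11). In the other CD4 T cells it was 205 and 180.3 CPM at 30 °C against 79.3 and 73.3 CPM at 4 °C (log2 fold change -1.40, SE 0.10, adjusted p = 2.94e-10). Eomes+ Nkg7+ T cells did not pass (log2 fold change -1.25, SE 0.42, adjusted p = 0.429).

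Il7r, the interleukin 7 receptor chain, was lower in 11 of 15 types tested. Foxp3+ T cells went from 909 and 856 CPM at 30 °C to 273 and 318 CPM at 4 °C (log2 fold change -1.62, SE 0.07, adjusted p = 9.64e-09), while Gamma-delta T cells held 564 and 636 CPM at 30 °C against 654 and 516 CPM at 4 °C (log2 fold change -0.12, SE 0.15, adjusted p = 0.717). Txnip, the thioredoxin-interacting protein gene, was lower in 10 of 16 types and likewise did not pass in Gamma-delta T cells (log2 fold change -0.24, SE 0.15, adjusted p = 0.426), where the libraries overlapped. Mt1, a metallothionein gene, was lower in 10 of 14 types, with 3642 and 3301 CPM at 30 °C against 586 and 543 CPM at 4 °C in resident macrophages (log2 fold change -2.66, SE 0.11, adjusted p = 9.40e-10).

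Cxcr4, a chemokine receptor gene, was lower in 9 of 15 types, with 232 and 226 CPM at 30 °C against 40.1 and 40.3 CPM at 4 °C in resident macrophages (log2 fold change -2.56, SE 0.14, adjusted p = 1.71e-08). Sesn1, which encodes a sestrin, was lower in 7 of 16 types, namely all 4 B lineage types, Foxp3+ T cells, the other CD4 T cells and ILC2. Plasma cells had 139.7 and 126 CPM at 30 °C against 18.1 and 15.1 CPM at 4 °C (log2 fold change -3.04, SE 0.16, adjusted p = 9.96e-05), and Ighd+ B cells 129.6 and 131 CPM at 30 °C against 30.3 and 35.0 CPM at 4 °C (log2 fold change -2.09, SE 0.07, adjusted p = 1.17e-09). In resident macrophages Sesn1 overlapped, at 151 and 171 CPM against 179 and 166 CPM (log2 fold change 0.06, SE 0.13, adjusted p = 0.813).

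The difference of the change between cell types was itself tested for the listed genes that are not members, with all cell type by temperature terms together. Of the 25 other targets that passed the joint filter on low counts 16 passed the threshold, where 1128 of 13326 genes (8.46%) did. All 6 genes named above were among them, with adjusted p from 3.97e-15 for Sesn1 and 3.62e-14 for Ddit4 to 0.00186 for Il7r. Over the 4 lists 23 genes passed, and 35 did without the second 4 °C library.

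**Figure D5:**
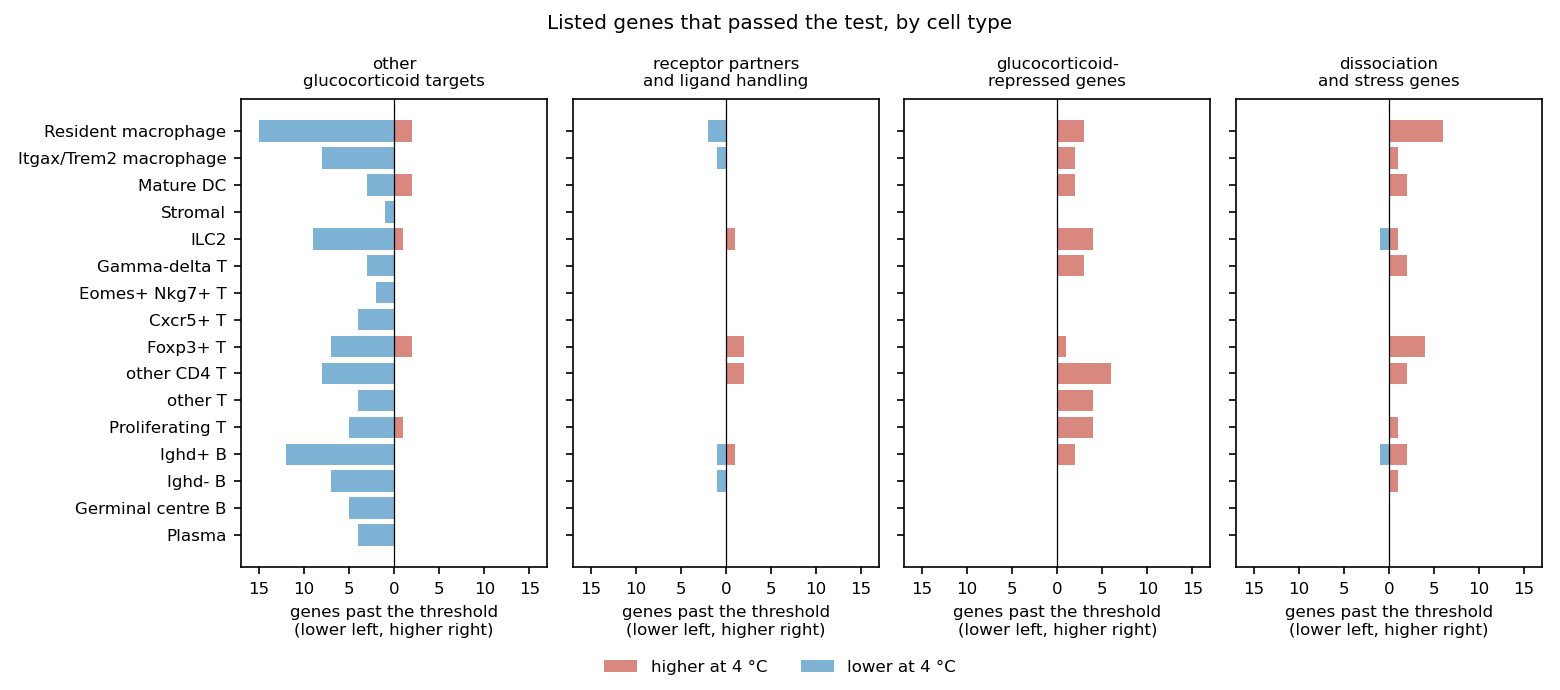
Number of listed genes past the threshold (adjusted p under 0.05, edgeR) in each cell type, lower at 4 °C to the left in blue and higher to the right in red, for 4 gene lists. Resident macrophages have the most lower targets (15), the bars of the receptor partners stay at 2 or less, and the repressed genes have bars on the higher side only.

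Genes that the receptor is known to repress went the opposite way. Of 14 listed, 13 were tested in some type, and of 72 pairs 31 were higher (43.1%) and 0 lower by edgeR's test (48 and 0 at an unadjusted p under 0.05, and 17 and 0 by DESeq2), beside 2.13% and 2.61% of all pairs. The list median was positive in 16 of 16 types, each over 1 to 7 genes. Tnf was higher in 8 of 13 types, among them ILC2, with 179.7 and 189 CPM at 30 °C against 336 and 364 CPM at 4 °C (log2 fold change 0.86, SE 0.10, adjusted p = 7.33e-05), and resident macrophages (log2 fold change 0.98, SE 0.23, adjusted p = 0.00644). Il13, a type 2 cytokine gene, was higher in 5 of 8 types, with 193 and 166 CPM at 30 °C against 602 and 811 CPM at 4 °C in ILC2 (log2 fold change 1.91, SE 0.13, adjusted p = 2.34e-07). Il13 and Il5 were among the markers that set the ILC2 gate, so a change in them can also change which cells passed it.

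Cxcl10 was higher in 5 of 12 types, from 0 and 8.31 CPM at 30 °C to 43.4 and 277 CPM at 4 °C in resident macrophages (log2 fold change 4.92, SE 1.03, adjusted p = 0.00337), with the cold libraries far from each other. In the other CD4 T cells Il4 (log2 fold change 0.81, SE 0.17, adjusted p = 0.00442) and Il2 (1.04, SE 0.18, adjusted p = 0.000674) were higher, and each was so in 3 types. Ptgs2, the cyclooxygenase 2 gene, was higher in mature dendritic cells (log2 fold change 1.87, SE 0.35, adjusted p = 0.017) and Itgax/Trem2 macrophages (2.49, SE 0.65, adjusted p = 0.0499).

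Partners of the receptor and genes that handle its ligand moved far less, with 6 higher and 5 lower among 222 pairs (2.70% and 2.25%), close to the shares over all genes. Ncoa1, a coactivator gene, was lower in both macrophage types, with 342 and 274 CPM at 30 °C against 56.5 and 52.5 CPM at 4 °C in resident macrophages (log2 fold change -2.53, SE 0.15, adjusted p = 2.32e-08). Ncoa2, a related coactivator, was lower in resident macrophages (-0.67, SE 0.18, adjusted p = 0.0177). Hsd11b1, which regenerates active corticosterone, was higher in ILC2 (log2 fold change 1.63, SE 0.25, adjusted p = 0.00122) and Foxp3+ T cells (0.50, SE 0.10, adjusted p = 0.0093). H6pd, which supplies its cofactor, was lower in Ighd+ B cells (-0.73, SE 0.23, adjusted p = 0.0497). The chaperone gene Hsp90aa1 was higher in 3 types by at most 0.37 (Foxp3+ T cells, SE 0.07, adjusted p = 0.00381), and its cochaperone gene Stip1 in the other CD4 T cells (0.69, SE 0.17, adjusted p = 0.0251). The counts rested on single libraries. The 6 higher pairs were 1 without the first 30 °C library and 9 without the first 4 °C library, and the 5 lower pairs were 3 without the second 30 °C library and 1 without the first 4 °C library.

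Some genes that respond to tissue dissociation and stress also differed between temperatures. Of 172 pairs over 12 genes, 22 were higher (12.8%) and 2 lower (1.16%), beside 2.13% and 2.61% of all pairs. Of the 22 higher pairs 6 were in resident macrophages. Junb was higher in 6 of 16 types (Foxp3+ T cells log2 fold change 0.41, SE 0.05, adjusted p = 0.000167), Nr4a1 in 4 of 16 (Ighd+ B cells 1.03, SE 0.08, adjusted p = 2.61e-06) and Fosb in 3 of 16. Atf3 was higher in both macrophage types (resident 1.98, SE 0.22, adjusted p = 1.80e-05) and Egr1 in resident macrophages (0.72, SE 0.11, adjusted p = 0.000233). Ier3 was higher in 3 types and lower in Ighd+ B cells (-2.25, SE 0.52, adjusted p = 0.0111). The heat shock genes of the list did not rise. Hspa1a passed the threshold in 0 of 14 types and Dnajb1 in 0 of 15, and Hspa1b was higher in 0 and lower in 1 of 14. The 2 lower pairs were 16 without the second 4 °C library, 4 without the second 30 °C library and 1 without the first 4 °C library. The part of this response in the values of the 9 genes was not tested.

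Among 2502 other genes tested in all 16 types, those whose log2 fold change followed the median of the 8 targets most closely over the types were Selenok (r = 0.94), Sec62 (0.89), Washc2 (0.88), Drap1 (0.88) and N4bp2l2 (0.83). These are descriptions over 16 types from the same 4 libraries, and 2 to 8 targets entered the median of a type. Their own changes were modest, from -1.07 for Washc2 to -0.17 for Selenok in resident macrophages. On the same measure Nr3c1, which is not part of the median, had r = -0.63. Fkbp5 and Tsc22d3, which are part of it, had r = 0.64 and 0.65. In Gamma-delta T, Eomes+ Nkg7+ T, germinal centre B and Ighd+ B cells the median was the Rhob value. The r values therefore depend on which target was in the middle of a type, and do not measure likeness to Fkbp5 or Tsc22d3.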

How the data were processed

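The deposited counts are raw UMIs per gene and barcode, which the authors made with Cell Ranger (3.0.0 in the file headers, 3.1.0 in the submitters' processing notes) on mm10 (GRCm38) from 10x 3′ libraries. Cells were kept by the limits in the study's methods (200 to 5000 genes and at most 7.5% mitochondrial UMIs, over genes seen in at least 10 cells), and all genes entered the sums. Types were set by marker gates (at least 3 lineage markers with 2 or more UMIs, 2 markers for lymphatic endothelium, and separate rules for plasma, Gamma-delta T and ILC2 cells) and kept with 20 cells in each library. Cells that passed the gates of more than 1 lineage (724) were left out as possible doublets, along with 1419 in no gate, and no doublet caller was run. UMIs were summed per library and type, since cells of a library are not replicates. Genes with too few UMIs were removed by edgeR's filterByExpr, and the quasi-likelihood test of edgeR 4.0.16 (R 4.3.3) with TMM scaling was applied to each type (3821 to 11426 genes), adjusted by Benjamini-Hochberg across every gene of that type, at a threshold of 0.05. Levels and differences between types came from joint fits with library as a factor. Scripts were tested on simulated data. Each library is a pool of 4 mice, so the temperature tests rest on 2 pools per temperature. They set the difference against a variation that edgeR estimates with information from all genes. Variation between single mice was not measured. The 9 genes and the lists were chosen with earlier results of these data known. Genes named from each list were the up to 6 past the threshold in the most types, with ties by median change. Alternatives were DESeq2 1.42.0, its size factors, other filters and gates, the replicate block and each library left out. Promoters came from RefSeq and positions from GENCODE M21. Nr3c1, Cebpd and Zbtb16 have no promoter entry used here.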

Additional observations from a re-analysis of the deposited data

Results flagged for a closer look

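For the listed genes named above, the test of a difference in temperature response between cell types passed the threshold for Junb (adjusted p = 0.00232), Ddit4 (3.62e-14), Il7r (0.00186), Mt1 (0.000715), Txnip (5.53e-10), Cxcr4 (4.66e-09), Sesn1 (3.97e-15), Hsd11b1 (0.0338), Ncoa1 (1.29e-11) and H6pd (0.035), all from edgeR with adjustment over 13326 genes.

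For 5 of the 9 genes both libraries of a temperature lay on opposite sides in different cell types. Of all gene and cell type pairs 17.8% were lower and 30.1% higher without overlap (23.8% and 23.1% after scaling for library composition). How many other genes lie on both sides was not counted, so nothing is read from this count. The difference between types was not tested because the genes were chosen on their change. Nr3c1 was lower at 4 °C in ILC2 (log2 fold change -0.34) and higher in resident macrophages (1.34). Sgk1 was lower in resident macrophages (-2.54) and higher in ILC2 (0.51). Errfi1 was lower in stromal cells (-1.62) and higher in proliferating T cells (0.75). Cebpd was lower in stromal cells (-1.19) and marginally higher in resident macrophages (0.03, 0.0267 before rounding), but that second pair overlapped after scaling for library composition and its sign turned without the first 30 °C or the second 4 °C library, so on scaled values 4 of the 5 remain. Rhob was lower in Ighd+ B cells (-0.61) and higher in mature dendritic cells (0.77).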

How the results depend on the processing

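The median log2 fold change of the 8 targets over the fitted pairs was -1.18, and it lay between -1.31 and -1.11 under the alternatives other than leaving out a library, and between -1.33 and -0.996 when each library was left out. For the 9 genes, 1049 of 1227 values under the alternatives moved by less than the replicate SD and 61 had the opposite sign, of which 18 were for Rhob, 16 for Errfi1, 10 for Nr3c1, 1 for Fkbp5 and 0 for Tsc22d3 and Klf9. The calls over all genes and types numbered 6116, against 2697 with DESeq2's Wald test and 3900 to 6380 when each library was left out (4066 without the first and 3900 without the second 30 °C library, where 1 arm held a single pool assumed to vary like the other). DESeq2 also gave 5 in place of 8 higher other targets, 17 in place of 31 higher repressed genes, 3 in place of 6 higher and 3 in place of 5 lower receptor partners, and 1 in place of 2 lower stress genes. With no filter on low counts, 34 stress genes were higher and 6 lower, and 46 in place of 23 listed genes differed between types. With no upper limit on genes, 12 receptor partners were higher and 1 stress gene was lower, and leaving out proliferating cells gave 0 lower stress genes. Leaving out each library gave 4 to 11 higher and 80 to 91 lower other targets, 1 to 9 higher and 1 to 5 lower receptor partners, 25 to 37 higher and 0 to 1 lower repressed genes, 18 to 33 higher and 1 to 16 lower stress genes, 17 to 35 genes that differed between types and 75 to 83 in place of 85 level contrasts past the threshold. The cause of these moves was not tested.

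The sample titles number the libraries, and whether same-numbered libraries were handled together is not stated. The correlation of their deviations had a median of 0.04 over the types (-0.12 in Gamma-delta T cells to 0.24 in stromal cells). With the replicate block the calls over all genes and types were 8487, with 13 higher other targets, 14 higher receptor partners and 6 lower stress genes, and the target median was -1.18. In Gamma-delta T cells the calls were 270, with the block 456 and with the crossed pairing, added after the data were seen, 334. The stricter gate left too few Gamma-delta T and stromal cells, and leaving out proliferating cells removed that T cell type. Depth limits stromal cells and the genes under about 10 CPM in small types.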

Other observations

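Lymphatic endothelial cells numbered 42 and 25 at 30 °C and 11 and 17 at 4 °C, too few for the fits, and are given as values. Their Fkbp5 was 186 and 275 CPM at 30 °C against 59.9 and 81.7 CPM at 4 °C, and their Tsc22d3 was 230.2 and 354 CPM against 40.0 and 72.7 CPM. Klf9 was 285 and 239 CPM at 30 °C against 89.9 and 31.8 CPM at 4 °C. Cebpd was 822 and 739.6 CPM against 369.6 and 340.5 CPM, and Errfi1 318 and 275 CPM against 99.9 and 109 CPM. Zbtb16 was 78.9 and 71.5 CPM at 30 °C against 9.99 and 18.2 CPM at 4 °C, the last 2 from 5 UMIs. Sgk1 stood apart from these, with 169 and 250.1 CPM at 30 °C against 379.6 and 259 CPM at 4 °C, so that both cold libraries were higher. Nr3c1 and Rhob overlapped between temperatures.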
